A study of Mus musculus with 45 samples.

Results

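The first 2 days of forced MyoD expression in mouse embryonic fibroblasts (MEFs) were described from 6 of the 45 libraries of the series. They are the 3 libraries of untreated MEFs, titled D0_MEF_1 to 3, and the 3 libraries titled D2_MyoD_1 to 3. Members were chosen by title alone. All 6 carry the genotype Tg:Pax7-nGFP/C57BL6;DBA2, a transgenic nuclear GFP reporter of Pax7 on a mixed background. The day 2 cells had received doxycycline for 2 days, which switched on an inducible MyoD, and are labelled as myotubes. The MEFs are labelled as untreated, so MyoD, doxycycline itself and any change of medium cannot be told apart. The vector that carried MyoD, in what share of cells it was active, and whether replicates came from separate embryos or cultures are not given in the sources used here. The p-values therefore measure only the spread between libraries within a group, estimated over all 45 libraries, part of which may be technical. The rest of the series holds later days of MyoD, MyoD with the small molecules labelled F/R/C, and progenitor and myoblast references. Day 4 of MyoD alone, also 3 libraries, is compared with day 2 at the end.

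MyoD is a basic helix-loop-helix transcription factor that pairs with E proteins and binds E-boxes, short sites of the form CANNTG. It can turn fibroblasts into skeletal muscle. It activates myogenin (Myog) and Mef2 factors, which act with it on genes of the contractile apparatus, while Id proteins bind E proteins and hold it back. Muscle cells that differentiate leave the cell cycle, fuse into multinucleated myotubes and build sarcomeres. Embryonic and neonatal sarcomere isoforms precede adult ones. Fibroblasts keep a program of their own, with matrix genes, growth factor receptors and mesenchymal transcription factors.

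To show the sites in question, the 250 bases before the first listed start of 5 genes that rose are printed 5′ to 3′ on the gene's strand, from RefSeq's GRCm38.p6 promoters. Capitals mark matches to 5 motifs. Of the E-boxes these are the palindrome CAGCTG, the form CAGGTG (whose other strand reads CACCTG) and the form CAGTTG (other strand CAACTG). The others are the TEAD motif CATTCC (other strand GGAATG) and the CArG box of serum response factor. Myog is shown because MyoD is known to act on it directly, the receptor subunits Chrna1 and Chrng and the troponin Tnnt2 because each holds 2 copies of CAGCTG, and Acta1 because its level was high and it holds 4 of the motifs.
Myog, chr1:134289754-134290003, plus strand: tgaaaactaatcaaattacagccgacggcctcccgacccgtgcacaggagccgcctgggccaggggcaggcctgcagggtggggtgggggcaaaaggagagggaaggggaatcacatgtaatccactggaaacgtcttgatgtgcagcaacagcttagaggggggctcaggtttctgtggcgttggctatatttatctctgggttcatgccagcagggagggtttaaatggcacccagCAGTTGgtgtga
Chrna1, chr2:73580339-73580588, minus strand: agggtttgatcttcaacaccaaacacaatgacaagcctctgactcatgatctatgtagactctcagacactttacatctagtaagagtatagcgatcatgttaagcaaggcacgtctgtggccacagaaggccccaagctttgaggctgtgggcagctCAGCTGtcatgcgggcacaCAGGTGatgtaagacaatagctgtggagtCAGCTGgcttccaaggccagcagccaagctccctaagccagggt
Chrng, chr1:87205561-87205810, plus strand: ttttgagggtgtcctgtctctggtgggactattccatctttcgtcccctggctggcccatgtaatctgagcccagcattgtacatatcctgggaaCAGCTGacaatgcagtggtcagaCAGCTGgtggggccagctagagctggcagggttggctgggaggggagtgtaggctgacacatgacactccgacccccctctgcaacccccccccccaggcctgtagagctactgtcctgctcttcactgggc
Tnnt2, chr1:135836084-135836333, plus strand: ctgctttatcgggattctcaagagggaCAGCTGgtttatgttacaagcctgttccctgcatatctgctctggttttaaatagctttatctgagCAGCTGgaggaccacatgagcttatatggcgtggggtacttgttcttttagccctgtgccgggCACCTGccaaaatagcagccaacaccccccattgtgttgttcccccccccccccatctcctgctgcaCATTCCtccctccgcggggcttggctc
Acta1, chr8:123894776-123895025, minus strand: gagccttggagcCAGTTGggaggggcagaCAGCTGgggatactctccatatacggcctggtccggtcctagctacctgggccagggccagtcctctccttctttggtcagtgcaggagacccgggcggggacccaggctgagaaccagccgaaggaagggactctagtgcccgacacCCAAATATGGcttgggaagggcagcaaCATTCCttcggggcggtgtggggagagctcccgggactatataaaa

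The CAGTTG of Myog lies 12 to 7 bases before the start. The copies of CAGCTG lie 92 to 87 and 44 to 39 bases before the start of Chrna1, and 223 to 218 and 157 to 152 before that of Tnnt2. Matches were counted on both strands, and overlaps were allowed. CAGCTG stood in 35.7% of the 84 muscle genes of the lists below that have an entry. It stood in 18.9% of 1494 genes called higher on day 2, in 11.3% of 1225 called lower, in 11.7% of 9756 tested but not called, and in 12.8% of all 27025 promoters of that length. For CAGGTG or CACCTG the shares were 19.0% of the 84 muscle genes, 18.9% of those called higher, 16.6% of those called lower, 14.9% of those not called and 17.1% of all. The MEF2 motif stood in 15.5% of the 84 muscle genes, 3.68% of those called higher, 1.88% of those called lower, 1.52% of those not called and 3.01% of all. These are matches of letters in a short window, not measured binding.

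Depth ran from 15.6 M to 24.3 M estimated reads in the 6 libraries. Levels are given as CPM, read counts scaled to a common library size with TMM, always in the order of replicates 1, 2 and 3. One MEF library stands apart. MEF replicate 1 held 161 genes at over 4 times both other MEF libraries (and at 5 CPM or more), against 3 for replicate 2 and 14 for replicate 3. It carried muscle transcripts: Myh3, the embryonic myosin heavy chain, stood at 49.2, 0 and 0 CPM in the MEFs. Its mitosis genes were also higher, with the proliferation marker Mki67 at 204, 65.1 and 69.0 CPM. The matrix proteoglycan Lum was higher there too, at 221, 20.8 and 7.16 CPM. Counts of called genes are therefore given with this library and without it. The defining markers of differentiating muscle (Myog, sarcomere and fusion genes) were present in the day 2 libraries, and those of fibroblasts (Col1a2, Pdgfra, Thy1) in the MEFs, with values given where each is described. Neither set was confined to its group: Col1a2 and Thy1 were still present on day 2, and Myog had reads in MEF replicate 1. In both groups the number 3 library carried Y-linked transcripts and almost no Xist, and the others mostly the reverse. The summed Y-linked level was 3.12, 0.465 and 158 CPM in MEFs and 0.341, 0.401 and 164 CPM on day 2. MEF replicate 1 thus held more than the other Xist-positive libraries.

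The fit called 2136 genes higher, which is 12.3% of the 17325 tested, and 1753 lower (10.1%). A gene was called where edgeR's adjusted p lay under 0.05 and the log2 fold change reached 1 in either direction. Without MEF replicate 1 it called 1961 higher (11.3%) and 1383 lower (7.98%). 1809 genes were called higher and 1255 lower in both fits. The lower calls leaned more on single libraries: without replicate 2 of day 2 their number was 1158. These percentages are the background for the lists that follow. In bulk RNA, fewer cells of a type and less RNA per cell cannot be told apart.

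**Figure D1:**
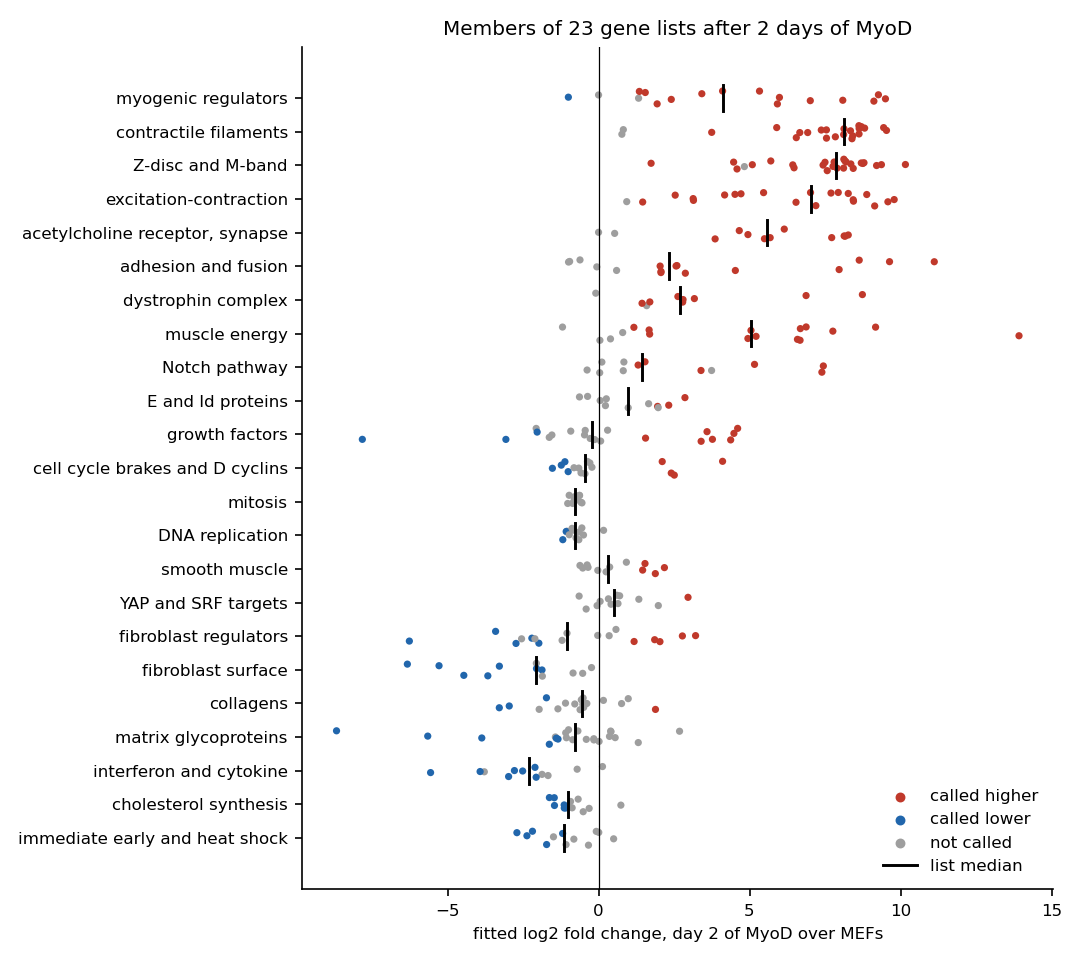
Fitted log2 fold change (x axis) of every tested member of 23 gene lists (y axis), day 2 of MyoD over MEFs with all libraries; red points were called higher, blue lower, grey neither, and bars are list medians. The 8 upper lists lie mostly to the right of 0, with a median of 8.12 for contractile filaments, while the median of fibroblast surface genes is -2.06; values of genes with almost no reads in MEFs depend on the fit's prior count.

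The 7 lists of muscle genes, 125 genes in all, were mostly higher on day 2. Of these, 108 rose and 0 fell, and without MEF replicate 1 the numbers were 106 and 1. MEF replicate 1 had the highest level of the 3 MEF libraries in 82 of the 125, which was not counted over all genes. In the other MEF libraries 31 of the 125 had 0 reads, against 871 of all 17325 genes tested. Of those 31, 26 had reads in replicate 1. The median log2 fold change of the contractile list was 8.12 with this library and 11.47 without it. The second value rests on the fit's prior count, since 13 of the 23 members then had at most 3 reads in each MEF library. With these set at the fold against 3 reads a library, the medians were 7.84 and 9.67.

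The induced factor itself was high on day 2. Myod1, which encodes it, stood at 8.84, 1.07 and 0.761 CPM in MEFs and 1998, 3575 and 2303 CPM on day 2, with no overlap (log2 fold change 9.50 with SE 0.82, adjusted p = 1.8e-10). Reads of the transgene and of the endogenous gene are summed in this value. Of 17 myogenic regulators, 14 rose and 1 fell in both fits, with a median log2 fold change of 4.11 against 0 over all genes tested. The 17 include the induced Myod1 itself, and Cdkn1a and Cdkn1c, which are counted again among the cell cycle genes below.

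Myog, which MyoD activates and which drives terminal differentiation, was at 6.90, 0 and 0 CPM in MEFs and 1026, 1480 and 1461 CPM on day 2 (log2 fold change 9.12 with SE 1.07, adjusted p = 5.7e-08). Against MEF replicates 2 and 3, which had 0 reads, it was at least 8025-fold higher, counting 3 reads a library as the most that 0 reads allow. The other myogenic factors did not follow. Myf5 had 0 reads in all 6 libraries, and Myf6 stood at 0.0486, 0.115 and 0 CPM on day 2 (adjusted p = 0.73).

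The Mef2 factors, partners of MyoD on muscle genes, rose unequally. Mef2c went from 13.1, 3.21 and 5.64 to 343, 558 and 433 CPM (log2 fold change 5.92 with SE 0.82, adjusted p = 1.1e-06). Mef2a and Mef2d, already present in MEFs at 179 ± 66.2 and 146 ± 14.4 CPM (SD, n = 3), reached 688 ± 81.7 and 425 ± 57.6 CPM, with log2 fold changes of 1.94 and 1.55 (adjusted p = 2.6e-05 and 3.5e-05). Six4, a homeobox factor of the myogenic lineage, rose by 1.35 on the log2 scale.

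Of the Eya proteins, transcriptional cofactors of the myogenic lineage, Eya4 rose from 4.48, 1.02 and 2.73 to 99.0, 126 and 107 CPM (log2 fold change 5.33 with SE 0.51, adjusted p = 1e-09). Eya1, from 18.9, 26.9 and 17.2 to 9.44, 9.58 and 12.5 CPM, was the 1 that fell, right at the fold threshold (log2 fold change -1.0 with SE 0.24, adjusted p = 0.0013). Hes6, a bHLH factor that favours muscle differentiation, went from 13.0, 11.6 and 13.0 to 685, 1008 and 697 CPM (log2 fold change 5.99 with SE 0.54, adjusted p = 3.6e-10). Smyd1, a muscle methyltransferase needed for sarcomere assembly, went from 1.89, 0.0929 and 0.0634 to 388, 589 and 376 CPM (log2 fold change 9.27 with SE 0.92, adjusted p = 2.2e-09), and the RNA-binding splicing regulator Rbm24 from 3.91, 0.139 and 0.0634 to 322, 457 and 399 CPM. None of these overlapped between groups. Eya1 was no longer called without MEF replicate 2 (adjusted p = 0.017) or without replicate 1 or 2 of day 2 (adjusted p = 0.0079 and 0.01), its log2 fold change then lying under the minimum.

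**Figure D2:**
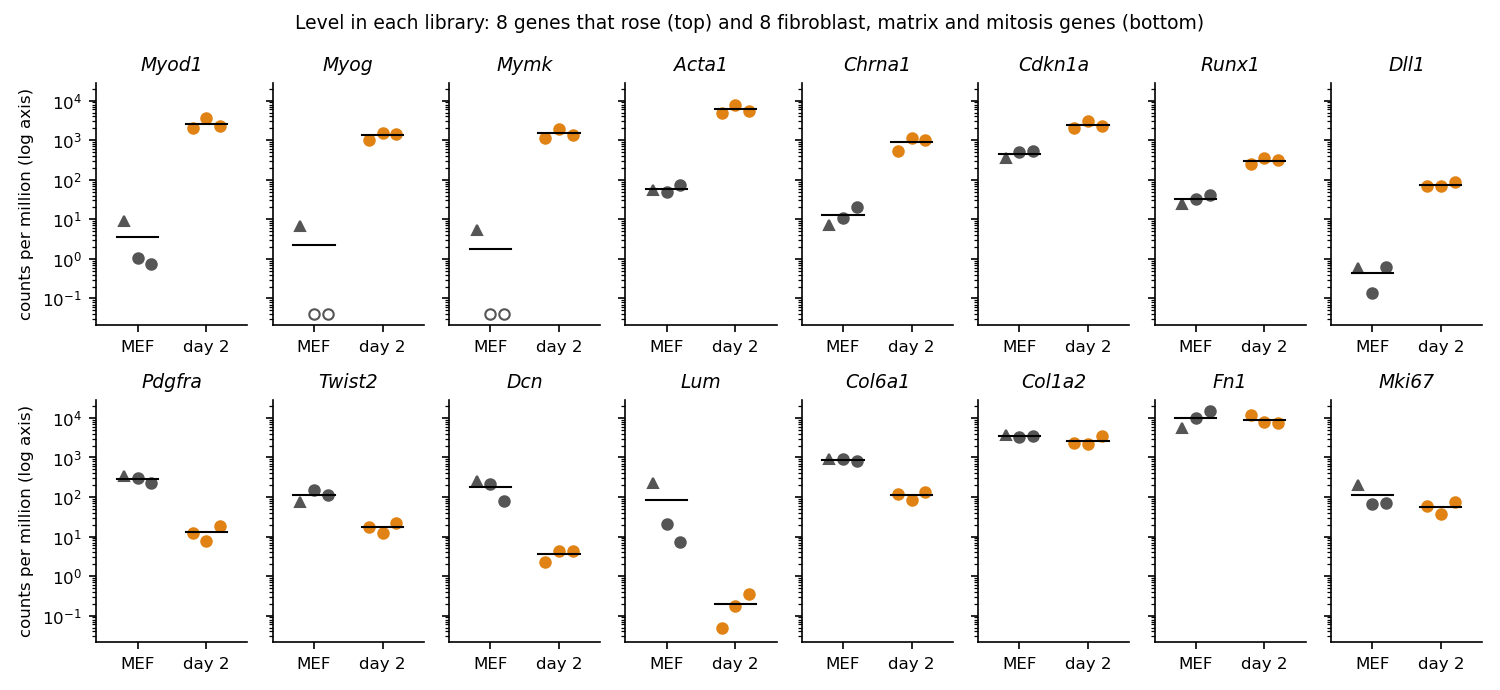
CPM in each library (log y axis) of 16 genes in MEFs (grey, replicate 1 as a triangle) and on day 2 of MyoD (orange); lines are means of 3 libraries and open symbols are 0 reads, drawn at the foot of the axis. Myog and Mymk had reads in MEFs in replicate 1 alone, the 4 genes from Pdgfra to Lum and Col6a1 lie wholly lower on day 2, and Col1a2, Fn1 and Mki67 overlap between groups.

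The contractile filaments were switched on. Of 23 genes, 21 rose in both fits, and Myl2 and Mybpc2 were at most 0.0573 CPM in every day 2 library. The median log2 fold change was 8.12, or 7.84 with genes at 3 reads or fewer in every MEF library set at the fold against 3 reads a library. The summed level of the list was 219, 56.9 and 79.7 CPM in MEFs and at least 20620 CPM in each day 2 library.

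Acta1, skeletal α-actin, rose from 56.6, 50.3 and 72.5 to 5025, 7646 and 5513 CPM (log2 fold change 6.66 with SE 0.85, adjusted p = 2.4e-07). Actc1, the cardiac α-actin that is also made in early skeletal muscle, rose from 33.6, 0 and 0.127 to 2351, 4139 and 2954 CPM (log2 fold change 8.12 with SE 1.23, adjusted p = 4.7e-06). The actins resemble each other closely, and the authors' counting divided some of their reads, so the split between them is uncertain.

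The same limit holds for the myosin heavy chains. Myh3, the embryonic form, reached 3648, 5611 and 4587 CPM on day 2. The neonatal form Myh8 stood at 353, 484 and 239 CPM, and the slow form Myh7 at 65.5, 78.4 and 58.1 CPM. The adult fast forms Myh1, Myh2 and Myh4 averaged 17.9, 7.53 and 18.6 CPM. All 6 were called higher than in MEFs in both fits, and all 6 had reads in MEF replicate 1. Set per length, mean TPM on day 2 was 1299 ± 231 for Myh3, 99.9 ± 32.0 for Myh8 and 5.22 ± 1.6 for Myh4 (SD, n = 3), so the embryonic form led and its range did not meet those of the others.

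Among troponins C and I, the slow forms led the fast forms. Tnnt2, the cardiac troponin T also made in embryonic skeletal muscle, rose from 8.22, 0.0929 and 0.507 to 1685, 2908 and 2108 CPM (log2 fold change 9.54 with SE 1.06, adjusted p = 2.4e-08). The slow troponins Tnnc1 and Tnni1 averaged 3935 ± 933 and 2397 ± 683 TPM on day 2, a level per length, against 655 ± 159 and 409 ± 133 TPM for the fast forms Tnnc2 and Tnni2 (SD, n = 3). Mylpf, the fast regulatory light chain, rose from 10.5, 0.743 and 0.571 to 1492, 2222 and 1673 CPM (log2 fold change 8.81 with SE 1.02, adjusted p = 5e-08).

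The scaffolding of the sarcomere was switched on alongside. Of 26 genes of the Z-disc and M-band, 25 rose and 0 fell with all libraries, and 24 rose without MEF replicate 1. Ttn encodes the giant protein titin, which runs from Z-disc to M-band, and rose from 9.93, 0.0465 and 0.0634 to 986, 1449 and 935 CPM (log2 fold change 8.36 with SE 1.09, adjusted p = 3.5e-07). Desmin (Des), the muscle intermediate filament, rose from 13.2, 8.78 and 2.22 to 1170, 1635 and 1419 CPM (log2 fold change 7.43 with SE 0.57, adjusted p = 2e-11). The α-actinins Actn2 and Actn3, which crosslink actin at the Z-disc, averaged 602 ± 157 and 802 ± 178 CPM on day 2, from 1.98 and 4.37 CPM.

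Some members were on at a low level. Tcap, a Z-disc cap of titin, stood at 6.08, 5.91 and 2.88 CPM (log2 fold change 7.80 with SE 1.39, adjusted p = 5.1e-05). Myot, another Z-disc protein, was at 1.41, 1.20 and 0.719 CPM and did not pass with all libraries (adjusted p = 0.06). With the 6 libraries fitted alone, all 26 genes of the list were called higher, Myot among them. Xirp2 passed with all libraries (adjusted p = 0.026) and not without MEF replicate 1 (adjusted p = 0.062), 2 (0.075) or 3 (0.077) or replicate 2 of day 2 (0.099).

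Excitation-contraction coupling links the membrane signal to calcium release. Of its 21 genes, 20 rose with all libraries and 19 without MEF replicate 1, and 0 fell. The median log2 fold change was 7.02, or 5.46 with low genes set the same way. Ryr1, the calcium release channel, rose from 5.41, 0.232 and 0.0634 to 431, 538 and 484 CPM (log2 fold change 7.94 with SE 0.88, adjusted p = 2.1e-08). Its voltage sensor Cacna1s went from 0.747, 0 and 0 to 122, 184 and 168 CPM (log2 fold change 9.14 with SE 0.98, adjusted p = 1.3e-08).

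The calcium store was biased to one isoform. Casq2, calsequestrin of cardiac and slow muscle, rose from 5.05, 0.232 and 0.190 to 592, 1150 and 936 CPM (log2 fold change 8.88 with SE 1.13, adjusted p = 2.4e-07). Casq1, the fast form, rose from 0.264, 0 and 0 to 5.45, 4.88 and 3.46 CPM (log2 fold change 5.46 with SE 1.14, adjusted p = 0.00036). Per length they stood at 658 ± 169 and 4.39 ± 1.06 TPM on day 2 (SD, n = 3). Atp2a1, the fast calcium pump, rose from 6.72, 0.0465 and 0 to 240.5, 286 and 382 CPM. Sln and Scn4a, a pump regulator and the muscle sodium channel, had 0 reads in all 3 MEF libraries and averaged 0.790 and 4.77 CPM on day 2. Pln, the pump regulator of the heart, stayed at or below 0.172 CPM.

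The acetylcholine receptor is the target of the motor nerve. Of 12 receptor and synapse genes, 10 rose in both fits. Chrna1, the α subunit, rose from 6.99, 10.7 and 19.9 to 529.9, 1109 and 1025 CPM (log2 fold change 6.15 with SE 0.55, adjusted p = 3.1e-10). The γ subunit Chrng, of the fetal receptor, rose from 4.92, 0 and 0 to 412, 498 and 536 CPM (log2 fold change 8.13 with SE 0.85, adjusted p = 8.3e-09). Chrne, which replaces it in the adult, had 0 reads in all 6 libraries. Lrp4, a receptor for the nerve signal agrin, rose from 21.9, 3.07 and 3.80 to 447, 538 and 322 CPM (log2 fold change 5.49 with SE 0.53, adjusted p = 1.1e-09). Its partner Musk, a kinase that organises the synapse, averaged 17.7 ± 3.49 CPM on day 2 (SD, n = 3), from 0.314 CPM. Utrn, the utrophin of the synapse, did not pass (log2 fold change 0.53 with SE 0.23, adjusted p = 0.068).

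The fusion machinery was present by day 2. Mymk, the membrane protein that starts fusion, stood at 5.36, 0 and 0 CPM in MEFs and 1145, 1922 and 1380 CPM on day 2 (log2 fold change 9.64 with SE 1.10, adjusted p = 3.9e-08). Mymx, its small partner that completes fusion, stood at 0.132, 0 and 0 and 96.2, 135 and 136 CPM (log2 fold change 11.12 with SE 0.77, adjusted p = 2.7e-12). MEF replicate 1 was again the one MEF library with reads of either. Against replicates 2 and 3 Mymk was at least 8995-fold and Mymx at least 742-fold higher.

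Adhesion genes split. Of the 16 genes of adhesion and fusion, 11 rose in both fits. Cdh15, the cadherin of muscle precursors, rose from 10.9, 0.372 and 0.127 to 829, 1174 and 913 CPM (log2 fold change 7.97 with SE 0.78, adjusted p = 1.9e-09), and Ncam1 from 119.7, 220.5 and 208 to 1187, 1532 and 1302 CPM (log2 fold change 2.87 with SE 0.42, adjusted p = 3e-06). Cdh2, the cadherin that MEFs already carried, went from 274 ± 46.8 to 414 ± 49.0 CPM (SD, n = 3) and did not pass (adjusted p = 0.18). Of 2 paired coreceptors that promote myogenesis, Cdon rose from 47.0, 25.7 and 19.2 to 167, 169 and 220.1 CPM (log2 fold change 2.60 with SE 0.40, adjusted p = 6.5e-06) while Boc was just under the fold minimum (log2 fold change -0.99 with SE 0.39, adjusted p = 0.042), which it passed without MEF replicate 2 or 3 or replicate 3 of day 2 (adjusted p = 0.02, 0.0064 and 0.04). Dock1, which helps fusion, was also just under it with all libraries (log2 fold change -0.96) and passed as lower without MEF replicate 1 (log2 fold change -1.0, adjusted p = 0.0074), without MEF replicate 3 (adjusted p = 0.0091) and without replicate 1 or 3 of day 2 (adjusted p = 0.01 and 0.011).

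The dystrophin complex ties the cytoskeleton to the matrix, and 8 of its 10 genes rose in both fits. Sgca, a sarcoglycan specific to striated muscle, rose from 0.571, 0 and 0 to 75.5, 111 and 91.0 CPM (log2 fold change 8.74 with SE 0.64, adjusted p = 6.8e-12). Dag1, dystroglycan, rose from 249, 257 and 253 to 707, 896 and 861 CPM (log2 fold change 1.70 with SE 0.34, adjusted p = 0.00023). Dmd itself, at 6.72, 16.6 and 16.3 and 56.0, 44.9 and 18.6 CPM, did not pass (adjusted p = 0.074).

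Genes of muscle energy supply rose with the rest. Of 17, 13 rose in both fits, with a median log2 fold change of 5.05. Ckm, muscle creatine kinase and a standard marker of differentiation, reached 12.7, 19.1 and 25.2 CPM from 0.264, 0.186 and 0.0634 CPM (log2 fold change 6.67 with SE 1.18, adjusted p = 4.7e-05). Mb, myoglobin, had 0 reads in all MEF libraries and 73.8, 101 and 77.0 CPM on day 2, at least 545-fold higher. Eno3, the muscle enolase, rose from 23.2, 18.7 and 33.4 to 673, 1004 and 641 CPM (log2 fold change 4.95 with SE 0.40, adjusted p = 4.7e-11). The brain-type creatine kinase Ckb and the fatty acid carrier Fabp3 did not pass (adjusted p = 0.22 and 0.7).

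**Figure D3:**
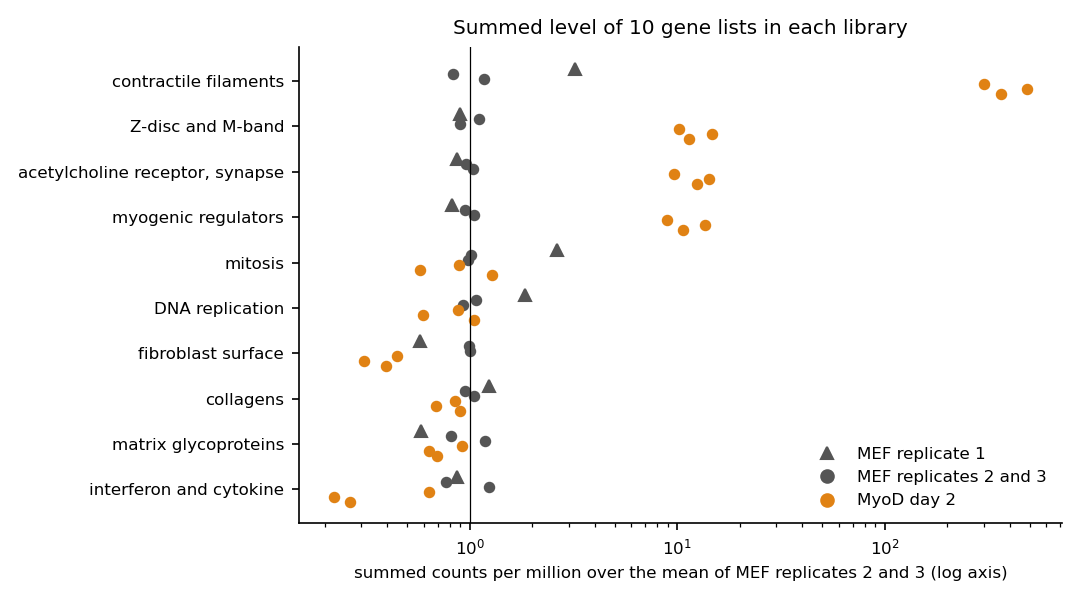
Summed CPM of 10 gene lists in each of the 6 libraries, divided by the mean of MEF replicates 2 and 3 (log x axis); the triangle is MEF replicate 1. That library lies at 3.21 for contractile filaments, 2.62 for mitosis and 1.85 for DNA replication. It lies at 0.8952 for Z-disc and M-band, 0.8713 for acetylcholine receptor and synapse and 0.8185 for myogenic regulators. The day 2 libraries lie far to the right for the muscle lists.

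Genes that restrain or pattern myogenesis rose too. Of 12 genes of the Notch pathway, which holds muscle precursors undifferentiated, 6 rose with all libraries, 7 without MEF replicate 1, and 0 fell. The ligand Dll1 rose from 0.571, 0.139 and 0.634 to 68.8, 68.7 and 86.6 CPM (log2 fold change 7.40 with SE 0.52, adjusted p = 3.4e-12), and the ligand Jag2 from 1.32, 2.56 and 4.63 to 21.3, 32.6 and 34.1 CPM (log2 fold change 3.39 with SE 0.50, adjusted p = 3e-06). The receptor Notch1 passed without MEF replicate 1 (log2 fold change 1.61, adjusted p = 0.00055) and not with it (adjusted p = 0.063). MEF replicate 1 was the high one, at 103, 33.3 and 31.1 CPM against 79.1, 78.6 and 137 CPM on day 2. Of the targets, Heyl rose from 0.659, 0.139 and 0.634 to 58.5, 78.4 and 111 CPM (log2 fold change 7.44 with SE 0.87, adjusted p = 5.4e-08), Hey1 averaged 17.7 ± 1.94 CPM from 0.499 CPM, and Hes1 74.3 ± 4.44 CPM from 25.6 CPM (SD, n = 3).

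Of 11 E and Id proteins and related bHLH factors, 3 rose in both fits and 0 fell. The E proteins Tcf3, Tcf4 and Tcf12, the binding partners of MyoD, had log2 fold changes of -0.36, -0.63 and 0.23 and none was called. Id1, an inhibitor of these partners, rose from 16.7, 38.8 and 38.5 to 118, 120 and 126 CPM (log2 fold change 1.96 with SE 0.34, adjusted p = 3.7e-05), and Id2 from 15.3, 17.3 and 14.6 to 68.7, 69.5 and 98.3 CPM (log2 fold change 2.32 with SE 0.43, adjusted p = 9e-05). Id3, at 62.7, 102 and 108 and 191, 162 and 186 CPM, stayed just under the fold minimum (log2 fold change 0.98 with SE 0.34, adjusted p = 0.024) and passed it without MEF replicate 2 or 3 or replicate 2 of day 2 (adjusted p = 0.049, 0.037 and 0.048).

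Genes of growth factor signalling, which include ligands, binding proteins and receptors, moved in both directions. Of 20 genes, 7 rose in both fits, and 3 fell with all libraries and 4 without MEF replicate 1. Igf2, an insulin-like growth factor that promotes muscle differentiation, rose from 346, 272 and 56.4 to 3488, 5178 and 5323 CPM (log2 fold change 4.38 with SE 0.64, adjusted p = 3e-06). Its binding protein Igfbp5 rose from 272, 43.0 and 32.0 to 1410, 1425 and 1355 CPM (log2 fold change 3.59 with SE 0.65, adjusted p = 6e-05), and Igfbp3 from 28.6, 12.7 and 49.6 to 417, 387 and 434 CPM. Tgfb2 and Tgfb3 rose as well, with log2 fold changes of 3.40 and 1.56, while Tgfb1 did not pass (adjusted p = 0.46). Tgfb3 was no longer called without MEF replicate 2 (adjusted p = 0.053).

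In the other direction, Wnt5a, a noncanonical Wnt ligand of mesenchyme, fell from 247, 344 and 308 to 84.5, 59.5 and 75.6 CPM (log2 fold change -2.03 with SE 0.57, adjusted p = 0.0058). Hgf, a factor that activates muscle stem cells, fell from 29.3, 5.71 and 10.4 to 2.14, 1.03 and 2.2 CPM (log2 fold change -3.07 with SE 0.82, adjusted p = 0.004). Agtr2, an angiotensin receptor, fell from 318, 256 and 156 to 0.730, 0.918 and 1.53 CPM (log2 fold change -7.82 with SE 1.61, adjusted p = 0.00029). The groups overlap for none of the 3.

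Several brakes of the cell cycle rose, while no mitosis gene passed the test. Cdkn1a, which encodes the inhibitor p21 that MyoD is known to induce, rose from 346, 503 and 532 to 1992, 3037 and 2300 CPM (log2 fold change 2.41 with SE 0.31, adjusted p = 3.6e-07). Cdkn1c, encoding p57, rose from 54.1, 18.0 and 17.6 to 381, 587 and 579 CPM (log2 fold change 4.11 with SE 0.89, adjusted p = 0.00055). Rb1, the retinoblastoma protein that keeps muscle cells out of the cycle, rose from 24.3, 27.3 and 34.7 to 131, 198 and 162 CPM (log2 fold change 2.51 with SE 0.35, adjusted p = 1.3e-06). Ccnd3, the D cyclin kept in differentiating muscle, rose from 207, 193 and 157 to 648, 873 and 880.1 CPM (log2 fold change 2.11 with SE 0.26, adjusted p = 1.7e-07). Ccnd1, the D cyclin of growth signals, fell from 616, 1121 and 1198 to 536, 342 and 477 CPM (log2 fold change -1.11 with SE 0.42, adjusted p = 0.039), a call lost without MEF replicate 2 or 3 (adjusted p = 0.1 and 0.11) and without replicate 2 or 3 of day 2 (0.15 and 0.073).

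In all, 4 of 15 brakes and D and E cyclins rose and 4 fell, or 4 and 3 without MEF replicate 1. Cdkn2a and Cdkn2b, inhibitors that accumulate in cultured fibroblasts, were called lower in both fits, with log2 fold changes of -1.01 and -1.23. Both calls were near the threshold: without MEF replicate 2 or 3 their adjusted p was 0.22 and 0.081 for Cdkn2a and 0.11 and 0.17 for Cdkn2b, and without day 2 replicate 2 or 3 it was 0.12 and 0.079 and then 0.18 and 0.08. Without day 2 replicate 1 Cdkn2a was at 0.081. Cdkn2c was the call that went away: it stood at 43.3, 5.39 and 5.90 CPM in MEFs and 4.18, 6.37 and 8.41 CPM on day 2. It was called lower with all libraries (log2 fold change -1.53). Without MEF replicate 1 its log2 fold change was 0.17, of the other sign, and it was not called. It was also not called without replicate 1 of day 2 (adjusted p = 0.069).

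None of 12 mitosis genes was called in either fit. Mki67 stood at 204, 65.1 and 69.0 CPM in MEFs and 60.8, 38.2 and 73.5 CPM on day 2 (log2 fold change -0.97 with SE 0.60, adjusted p = 0.2). Without MEF replicate 1 the list's median log2 fold change moved from -0.78 to -0.12. All 12 were highest in MEF replicate 1. Of 12 DNA replication genes, Mcm6 and Gins2 fell with all libraries and 0 without MEF replicate 1. Among the day 2 libraries, the members of both lists were lowest in replicate 2, whose summed mitosis level was 251 CPM against 386 and 555 CPM in the others. Against MEF replicates 2 and 3, at 441 and 427 CPM, the day 2 libraries overlap, and a fall in mitosis transcripts was not detectable on day 2. By day 4 the mitosis sums were 209, 95.4 and 265 CPM, under every MEF library. No mitosis gene was called between day 2 and day 4, a comparison in which 0.317% of all genes tested were called lower. Day 4 was not tested against MEFs.

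Fibroblast transcription factors moved in both directions. Of 17 tested, 5 rose in both fits, and 5 fell with all libraries and 4 without MEF replicate 1. With the 6 libraries fitted alone, 5 rose and 8 fell. Twist2, a mesenchymal factor that blocks MyoD, fell from 76.5, 150.4 and 115 to 17.0, 12 and 22.3 CPM (log2 fold change -2.73 with SE 0.88, adjusted p = 0.015), a call lost without replicate 2 of day 2 (adjusted p = 0.068). Prrx1, a limb mesenchyme homeobox factor, fell from 724, 477 and 529 to 159, 114 and 166 CPM (log2 fold change -1.98 with SE 0.45, adjusted p = 0.00079), and its relative Prrx2 rose from 12.8, 12.4 and 24.0 to 101, 122 and 114 CPM (log2 fold change 2.78 with SE 0.49, adjusted p = 4e-05). The same held for another pair of relatives: Snai2 fell from 49.0, 86.5 and 78.8 to 17.4, 12.6 and 16.3 CPM (log2 fold change -2.21 with SE 0.35, adjusted p = 7.7e-06) while Snai1 rose from 17.5, 15.5 and 18.5 to 61.9, 61.5 and 63.2 CPM (log2 fold change 1.86 with SE 0.28, adjusted p = 3.3e-06).

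Runx1, a factor active in several mesenchymal and blood lineages, rose most in this list, from 24.0, 31.8 and 42.1 to 253, 346 and 308 CPM (log2 fold change 3.21 with SE 0.32, adjusted p = 2.2e-09). Tbx18 and Zeb2 rose by 2.03 and 1.18 on the log2 scale. Twist1, at 24.9 ± 9.11 and 12.1 ± 1.89 CPM (SD, n = 3), did not pass (adjusted p = 0.28, and 0.022 when the 6 libraries were fitted alone). Osr1 was called lower with all libraries, from 67.9, 6.32 and 6.53 CPM, and not without MEF replicate 1 (adjusted p = 0.26).

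Many surface markers of fibroblasts fell. Of 12 genes, 7 fell with all libraries and 5 without MEF replicate 1, with 4 in both, and 0 rose. Without replicate 2 or without replicate 3 of day 2, 4 fell. Pdgfra, the platelet-derived growth factor receptor that marks mesenchymal cells, fell from 331, 302 and 220 to 12.5, 7.63 and 18.5 CPM (log2 fold change -4.46 with SE 1.17, adjusted p = 0.0033). Cd34 fell from 12.2, 76.6 and 53.6 to 2.00, 0.975 and 0.674 CPM (log2 fold change -5.28 with SE 1.08, adjusted p = 0.00027). Ly6a, the antigen Sca-1, fell from 110, 253 and 304 to 35.0, 13.8 and 19.5 CPM (log2 fold change -3.29 with SE 1.10, adjusted p = 0.019, and adjusted p = 0.083 and 0.064 without replicate 2 or 3 of day 2), and Dpt, the matrix protein dermatopontin counted in this list, from 20.2, 30.0 and 16.4 to 0.195, 0.401 and 0.225 CPM (log2 fold change -6.33 with SE 1.30, adjusted p = 0.00032). Thy1, at 1236, 1521 and 1635 and 408, 323 and 467 CPM, lay at the threshold (adjusted p = 0.05 with all libraries and from 0.066 to 0.14 with any 1 of the 6 left out). Pdgfrb, Axl and Eng did not pass in either fit, and the groups overlap for Axl and Eng.

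Part of the matrix fell. Of 18 collagens and crosslinking enzymes, 3 fell and 1 rose in both fits, which is 16.7% lower against 10.1% of all genes. With the 6 libraries fitted alone, 6 of the 18 fell. Of 22 matrix glycoproteins, 6 fell with all libraries, and 3 fell and 1 rose without MEF replicate 1. Over the 4 fibroblast lists, 21 genes fell, and the number was 13 without replicate 2 of day 2 (3 of them matrix glycoproteins) and 28 with the 6 libraries fitted alone. Col6a1 and Col6a2, chains of collagen VI, fell from 896, 895 and 806 and 592, 467 and 381 CPM to 117, 85.7 and 131 and 45, 41.6 and 61.0 CPM. Their log2 fold changes were -2.96 and -3.29 (adjusted p = 0.0027 and 0.0011). The small proteoglycan Dcn, decorin, fell from 259, 207 and 78.7 to 2.33, 4.24 and 4.22 CPM (log2 fold change -5.66 with SE 1.51, adjusted p = 0.0039), and Lum, lumican, from 221, 20.8 and 7.16 to 0.0486, 0.172 and 0.36 CPM (log2 fold change -8.68 with SE 1.80, adjusted p = 0.00042, and -6.11 without MEF replicate 1).

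Several abundant matrix transcripts did not pass the test. Fn1, fibronectin, stood at 5681, 10020 and 14750 CPM in MEFs and 11930, 7933 and 7433 CPM on day 2 (log2 fold change -0.16 with SE 0.68, adjusted p = 0.88). Col1a2, a chain of collagen I, stood at 3652, 3387 and 3396 and 2295, 2249 and 3427 CPM (log2 fold change -0.39 with SE 0.93, adjusted p = 0.77), and Col1a1 at 4817, 3647 and 3496 and 2215, 1260 and 2126 CPM (log2 fold change -1.09 with SE 0.74, adjusted p = 0.25). The groups overlap for Fn1 and Col1a2 and not for Col1a1, which passed when the 6 libraries were fitted alone (adjusted p = 0.015). Sparc and Bgn did not pass either. Col5a2, a fibril-forming collagen chain, went the other way, from 623, 736 and 988 to 3267, 2684 and 2720 CPM (log2 fold change 1.89 with SE 0.47, adjusted p = 0.0022). Mfap4, at 10.7, 1.30 and 0.824 CPM in MEFs and 6.91, 11.8 and 13.4 CPM on day 2, was called higher without MEF replicate 1 (log2 fold change 3.31, adjusted p = 0.0051) and not with it (adjusted p = 0.18).

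Among 12 smooth muscle and myofibroblast genes, 4 rose with all libraries and 3 without MEF replicate 1, and 0 fell. Tpm2, β-tropomyosin, which skeletal muscle also uses, rose from 389, 537 and 542 to 1644, 2050 and 1708 CPM (log2 fold change 1.88 with SE 0.41, adjusted p = 0.00064), and Synpo2 and Smtn rose by 2.18 and 1.54 on the log2 scale. Acta2, smooth muscle α-actin, went from 1672, 2312 and 2386 to 6018, 6603 and 4909 CPM, called with all libraries (adjusted p = 0.035) and not with any 1 of the 6 left out (adjusted p from 0.053 to 0.11). Tagln, Cnn1 and Myh11 overlapped between groups. Of 12 targets of YAP and serum response factor, Ankrd1 alone rose, from 38.3, 121 and 181 to 983, 968 and 703 CPM (log2 fold change 2.96 with SE 0.47, adjusted p = 1e-05). It is also a protein of striated muscle.

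Several interferon and cytokine genes fell. Of 12, 7 fell with all libraries and 5 without MEF replicate 1, and 0 rose. Ifit3, an interferon-induced gene, fell from 20.6, 43.0 and 12.6 to 0.535, 0.229 and 0.809 CPM (log2 fold change -5.56 with SE 0.60, adjusted p = 1.2e-08). The chemokine Ccl2 averaged 72.7 CPM in MEFs and 10.5 CPM on day 2 (log2 fold change -2.79, adjusted p = 0.039), which held without MEF replicate 1 (adjusted p = 0.037) and not with any other of the 6 left out (adjusted p from 0.055 to 0.14). Ccl7 averaged 52.4 and 6.61 CPM (log2 fold change -2.98, and adjusted p = 0.058 without replicate 2 of day 2).

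Some genes of cholesterol synthesis fell by a small margin. Of 12 genes, 6 fell with all libraries and 7 without MEF replicate 1, and 0 rose, with a median log2 fold change of -1.01 over the list. When tested against a log2 fold change of 1 with glmTreat, 1 of the 12 passed as lower. Lss, lanosterol synthase, fell from 48.1, 56.0 and 51.8 to 19.7, 15.5 and 15.2 CPM (log2 fold change -1.63 with SE 0.27, adjusted p = 1.7e-05), and Idi1 from 33.7, 42.3 and 60.4 to 22.8, 12.1 and 14.4 CPM (log2 fold change -1.47 with SE 0.28, adjusted p = 0.00015). Srebf2, which encodes the factor that drives the pathway, was higher on day 2 but under the fold minimum (log2 fold change 0.74 with SE 0.20, adjusted p = 0.0042).

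Immediate early and heat shock genes, which respond to handling as well as to signals, were read as a check. Of 12, 5 fell in both fits and 0 rose. Fos stood at 49.0, 58.2 and 68.7 CPM in MEFs and 20.6, 15.5 and 17.3 CPM on day 2 (log2 fold change -1.72 with SE 0.27, adjusted p = 8.1e-06), and Hspa1a at 12.5, 15.2 and 7.67 and 1.75, 1.72 and 1.93 CPM (log2 fold change -2.70 with SE 0.41, adjusted p = 4.5e-06). Egr1 and Jun were not called. The part of handling in other results was not tested.

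The genes with the largest fitted increases were not all sarcomeric. Art1, an ADP-ribosyltransferase of muscle, had 0 reads in MEFs and 58.9, 82.8 and 66.7 CPM on day 2, at least 452-fold higher. R3hdml stood at 0.132, 0 and 0 and 221, 324 and 188 CPM (log2 fold change 12.12 with SE 1.09, adjusted p = 3.6e-10). Nsg2, known from neurons, had 0 reads in MEFs and 72.5, 108 and 70.6 CPM, at least 545-fold higher. Sost, an inhibitor of Wnt signals known from bone, had 0 reads in MEFs and a wide range of 38.7, 32.0 and 8.86 CPM on day 2.

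Some of the largest decreases had uneven MEF libraries. Enpp2, the enzyme autotaxin, stood at 111, 3.11 and 2.28 CPM in MEFs and 0.292, 0.172 and 0.135 CPM on day 2 (log2 fold change -7.56, and -3.73 without MEF replicate 1). Slc14a1, a urea transporter, stood at 697, 62.8 and 77.5 and 3.21, 1.83 and 2.79 CPM (-6.73 and -4.74). Igsf10 and Agtr2 were less uneven, and Igsf10 fell from 354, 283 and 160.2 to 3.99, 4.30 and 6.52 CPM (log2 fold change -5.75 with SE 1.21, adjusted p = 0.00038).

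By level per length, the transcripts that gained most were Tmsb10, Acta1, Mylpf, Tnnt2, Tnnc1, Actc1, Myl4, Myod1, Igf2 and Tnni1. Together they held 0.327% of TPM in MEFs and 4.92% on day 2. Tmsb10, thymosin β10, which binds actin monomers, led with a mean TPM of 2963 ± 590.5 in MEFs and 12840 ± 1448 on day 2 (SD, n = 3). Those that lost most were Crabp1, Ftl1, Ctsl, Hmga1, Gsto1, Ctsb, Anxa5, Nid1, Emp1 and Prl2c3, from 2.43% to 0.596%. Crabp1, a retinoic acid binding protein, fell from 1318, 3132 and 1533 to 63.2, 75.2 and 119 CPM (log2 fold change -4.54 with SE 1.4, adjusted p = 0.011). The lysosomal proteases Ctsb and Ctsl had log2 fold changes of -1.67 and -1.57.

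Day 4 showed which programs had not reached their later level. Between day 2 and day 4, 377 genes rose (2.18% of those tested) and 55 fell (0.317%). The 432 calls dropped to 176, 205 and 157 without replicate 1, 2 or 3 of day 2 and to 148 without replicate 2 of day 4. This comparison shares the day 2 libraries with the one above. Of the 125 muscle genes, 17 rose and 0 fell. Of these 17, Myot and Fabp3 had not passed the test between MEFs and day 2 with all libraries. Myot had passed it with the 6 libraries of that comparison fitted alone.

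The 17 were of several groups: 5 sarcomere isoforms (Myh2, Myh4, Myh7, Myh8 and Myl3), 3 scaffold genes (Neb, Myot and Tcap), 3 coupling genes (Cacna1s, Sln and Scn4a), 4 energy genes (Pygm, Ampd1, Fabp3 and Slc2a4), Musk and Cav3. Myh8 went from 353, 484 and 239 CPM on day 2 to 4186, 9852 and 6101 CPM on day 4 (log2 fold change 4.23, SE 1.01, adjusted p = 0.014). Myh7 went from 67.3 to 974 CPM on average, Myh4 from 18.6 to 156, and Myh2 from 7.53 to 115. Cacna1s averaged 158 ± 32.3 CPM on day 2 and 859 ± 236 CPM on day 4, and Neb 94.4 ± 14.8 and 657 ± 148 CPM (SD, n = 3). Myog, Mymk and Acta1 were not called between the days (log2 fold changes 0.12, -0.09 and 0.52).

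Several regulators that were high on day 2 fell by day 4. Mef2a went from 628, 781 and 656 CPM on day 2 to 257, 226 and 221 CPM on day 4 (log2 fold change -1.55, adjusted p = 0.0051). Six4 fell as well, with a log2 fold change of -1.5. The Notch ligand Dll1 (log2 fold change -1.90), the Notch target Hey1 (-1.96) and Id2 (-2.09) also fell. No fibroblast surface, collagen or matrix glycoprotein gene was called between the days. With 2.18% of all genes tested called higher and 0.317% lower, lists of 12, 18 and 22 genes would hold few calls in any case.

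**Figure D4:**
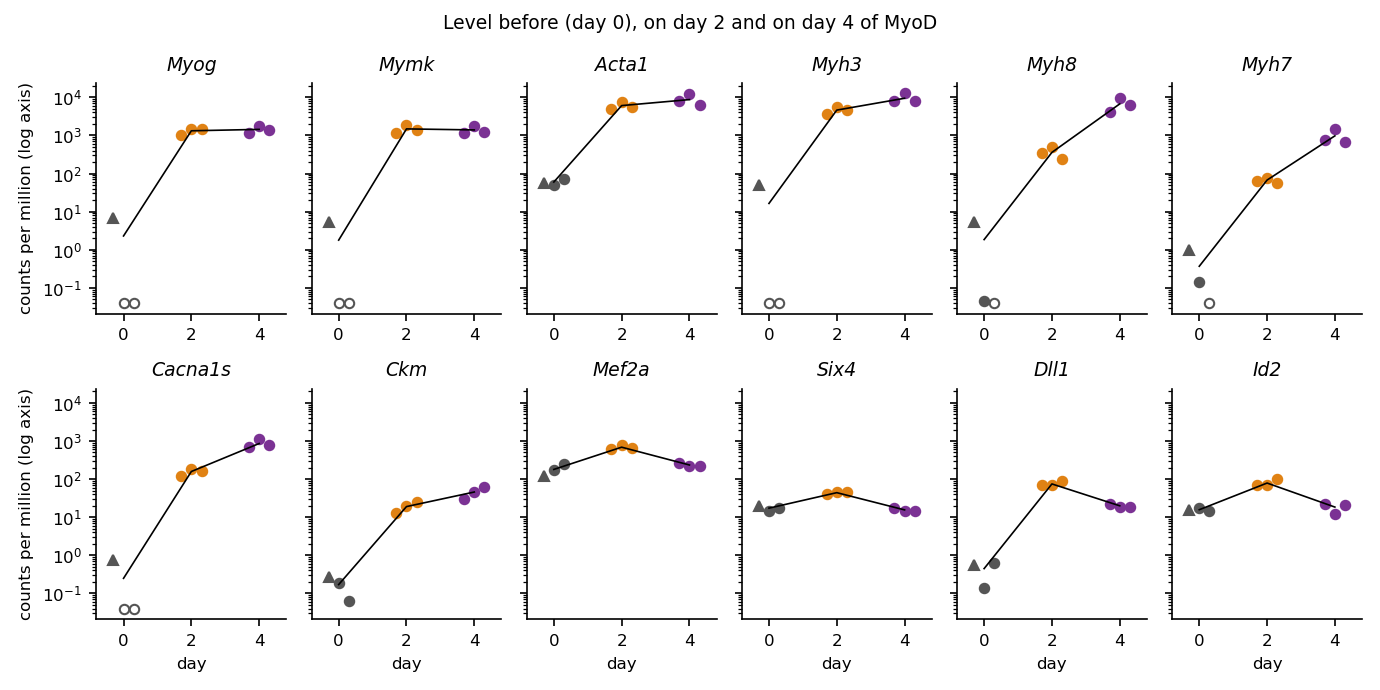
CPM in each library (log y axis) of 12 genes on days 0, 2 and 4 (x axis, grey, orange and purple); the line joins the means of 3 libraries, the triangle is MEF replicate 1 and open symbols are 0 reads drawn at the foot of the axis. Myog and Mymk are level from day 2, Myh8 and Myh7 still rise, and Mef2a, Six4, Dll1 and Id2 peak on day 2.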

How the data were processed

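Poly-A RNA was sequenced from 3 MEF and 3 day 2 libraries, per the labels' protocols, which name a stranded kit. The authors deposited estimated counts and TPM for each transcript, in the layout of kallisto output per the file headers. The submitters' processing notes name kallisto 0.44, Trimmomatic 0.36, bcl2fastq 2.19, edgeR 3.28 and GRCm38.p6. The transcript release and the strand setting are not given in the sources used here. Estimated counts were summed per gene through GENCODE transcripts of GRCm38 (121104 of 121843 matched) and rounded. Transcripts that share sequence divide reads, which left 9741 of 35675 genes with counts off a whole number by over 0.01 in some of the 6 libraries, so values of close relatives are uncertain.

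The quasi-likelihood test of edgeR 4.0.16 (R 4.3.3) was fitted over all 45 libraries, so that all groups share 1 estimate of the spread (30 residual degrees of freedom), with TMM scaling and edgeR's filter on low counts, which left 17325 genes. Adjusted p-values are Benjamini-Hochberg values over all of these. Calls needed an adjusted p below 0.05 and a log2 fold change of 1 or more in either direction. The standard error (SE) is the fold change divided by the root of the F statistic. The code was tested on simulated data. A bound against 0 reads uses 3 reads in each library and covers counting error only. Any 2 replicates differed by more than sampling noise, and each was counted once. That difference cannot show whether they came from separate cultures. Alternatives were RLE scaling, no filter, DESeq2 1.42.0, the 6 libraries alone, a replicate block, glmTreat, no minimum fold, no sorted libraries and each library left out.

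Genes named are members of 29 lists, the 12 largest fold changes each way among genes of at least 10 CPM called in both fits without overlap, and the 10 largest gains and losses of TPM. Members and lists were chosen with earlier results of these data known.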

Additional observations from a re-analysis of the deposited data

How the results depend on the processing

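The 3889 calls between MEFs and day 2 ranged from 2941 to 3745 with 1 of the libraries or 1 replicate number left out, the 2136 higher calls from 1783 to 2025 and the 1753 lower calls from 1158 to 1724. Counts of 3910 (RLE), 3700 (no filter), 4105 (DESeq2), 3466 (the 6 libraries alone), 4020 (no sorted libraries) and 3608 (the 6 libraries alone, less MEF replicate 1, a setting chosen after seeing the data) were within 1.5 times. The rule for a call moved them further: glmTreat against a log2 fold change of 1 gave 1847 (1295 higher, 552 lower), and no minimum fold gave 6317 (3558 higher, 2759 lower). Muscle genes called higher stayed between 104 and 108 with libraries left out. The 21 fibroblast and matrix genes called lower were 12 by glmTreat, from 13 to 20 with libraries left out, 28 with the 6 libraries alone (with or without the replicate block), 27 with these less MEF replicate 1 and 26 with the block over all libraries. The 432 calls between days 2 and 4 were 771 with the 6 libraries alone and from 148 to 398 with 1 library left out.

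The replicate block gave 4116 calls over all libraries and 3174 in the 6 alone, and 552 between days 2 and 4. Deviations of same-numbered MEF and day 2 libraries correlated at -0.06, 0.11 and -0.06, so pairing was not shown by the deviations. The number 3 library was the Y-linked one in both groups. The log2 fold change of Cdkn2c ranged from -1.99 to 0.39 with libraries left out. It reversed to a log2 fold change of 0.165 without MEF replicate 1 (adjusted p = 0.78), 0.39 without replicate 1 in both groups (0.5) and 0.143 in the 6 libraries alone less MEF replicate 1 (0.73), since its high MEF library was then absent. Low counts limit the genes absent from MEFs, whose fold changes are bounds.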

Other observations

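Markers of other cell types were read in the same libraries. Of 11 neuronal genes tested, 3 rose in both fits, and 3 fell with all libraries and 1 without MEF replicate 1. Tubb3, a neuronal β-tubulin, stood at 17.1, 8.32 and 13.2 CPM in MEFs and 106, 91.5 and 77.7 CPM on day 2 (log2 fold change 2.83 with SE 0.57, adjusted p = 0.00022). Dcx, a microtubule-binding protein of young neurons, stood at 0.0879, 0.0929 and 0 and 14, 21.7 and 10.9 CPM (log2 fold change 7.76 with SE 1.17, adjusted p = 4e-06). Gap43, a growth cone protein, fell from 171, 227 and 86.3 to 13.8, 8.54 and 8.18 CPM (log2 fold change -3.99 with SE 1.12, adjusted p = 0.006). The list thus moved in both directions, with a summed level of 125 to 254 CPM in MEFs and 216 to 265 CPM on day 2.

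Cardiac genes stayed low. Of 10, 2 rose in both fits and 2 fell with all libraries and 0 without MEF replicate 1. Gata4, a cardiac transcription factor, had 0 reads in MEFs and 0.924, 1.26 and 0.584 CPM on day 2, and Myh6, the cardiac myosin, 1.51, 2.52 and 1.26 CPM, with reads divided among myosins. The sum of this list was highest in MEF replicate 1, at 28.3 CPM, and did not exceed 9.34 CPM on day 2. Of 6 endothelial genes, Kdr rose and Egfl7 fell in both fits. Kdr was no longer called without MEF replicate 2 (adjusted p = 0.091) or without replicate 3 of day 2 (adjusted p = 0.069). Of 4 macrophage genes, Cd68 fell in both. Of 5 epithelial genes, Cldn4 rose and Krt18 and Krt19 fell, of which Krt18 was called in both fits. Krt18 was no longer called without MEF replicate 3 (adjusted p = 0.094) or with any 1 of the day 2 replicates left out (adjusted p from 0.053 to 0.11). Of 7 chondrocyte and adipocyte genes, 1 rose and 1 fell with all libraries and none without MEF replicate 1. The part of other cells in any result was not tested.

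One gene was called in opposite directions by the 2 fits and is named after its values were seen. Pi16, a marker of a fibroblast subset, averaged 2.24 ± 3.74 CPM in MEFs and 0.385 ± 0.0633 CPM on day 2 (SD, n = 3). Its log2 fold change was -2.54 with all libraries (adjusted p = 0.024 by edgeR) and 2.192 without MEF replicate 1 (adjusted p = 0.048).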
